A study of Homo sapiens with 6 samples.

Results

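Accessible chromatin was examined at 8 genes grouped as plasma cell identity regulators, out of 20033 protein-coding genes of the annotation. They were PRDM1, XBP1, POU2AF1, POU2F2, MEF2C, ZBTB20, KLF2 and ZNF215. The genes were taken by name, with earlier results of these data known, so shares in their windows are a description. Each gene body and 50 kb on either side was its window, and 1000 bp around each of its transcription start sites (TSSs) its promoters. Peaks of the 6 libraries that overlapped by 1 bp or more were merged, and the windows held 153 of the 89196 merged regions. The data were Omni-ATAC libraries, in which a transposase cuts open DNA, of MM.1S cells, an established human multiple myeloma line. Viable cells were sorted before tagmentation. In 3 libraries the cells had received 120 nM CB-6644, which inhibits the paired ATPases RUVBL1 and RUVBL2, for 72 h, and in 3 they had received the solvent DMSO. The labels do not tie the 3 libraries of a group to separate cultures, so every p-value measures the spread between these libraries, which may be technical, in 1 cell line.

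Plasma cells arise from B cells when a small set of transcription factors switches the gene program. PRDM1 (BLIMP-1) represses B-cell genes, and XBP1 drives the secretory and unfolded protein response genes that antibody output needs. POU2F2 (OCT2) and its coactivator POU2AF1 (OBF1) act at octamer elements, MEF2C is a MADS-box factor of B-lymphoid cells, ZBTB20 is a BTB zinc finger protein linked to plasma cell survival, and KLF2 is a Krüppel-like factor of lymphocyte homing and quiescence. ZNF215 is a zinc finger gene for which no part in plasma cell identity is claimed here. Distal elements of such genes are open where they are used, and an ATAC peak marks an open element without saying which gene it serves.

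The lists held between 58563 and 79020 peaks on chromosomes 1 to 22, X and Y. By default the peak caller bounds peak length from below by the fragment length it estimates. That bound was 131 to 152 bp in 4 libraries, whereas replicate 2 of CB-6644 reached down to 65 bp and replicate 1 of DMSO to 91 bp, so 1 library of each group stood apart, and that split was a term of the fits. The lowest background ran from 3.20 to 7.05 tags per kb in CB-6644 libraries and from 6.40 to 9.08 in DMSO libraries. Promoters of 8 or 9 of 9 plasma cell markers were called in each library, against 0 of 4 erythroid markers. Of the B-cell markers, PAX5, EBF1 and CIITA were called in every library and MS4A1 and SPIB in none. Among 6 T-cell markers LCK was called in every library, TRAT1 in the 3 DMSO libraries alone and CD3D, CD3E, CD3G and CD2 in none. Of 4 stromal markers 2 were called in each CB-6644 library and 3 in each DMSO library, and of 5 monocyte markers 2 (CD14 and SPI1) were called in every library. The part of other cells in the results was not tested. In a bulk library, fewer cells with an open element and less opening in each cell cannot be told apart.

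The sequences below are of window regions picked by rank, not all of which passed a test. Each is 200 bases of the plus strand of the hg38 reference around the strongest summit, with matches to the 12 motifs searched in capitals. First come the regions outside UTRs with the smallest adjusted p in each direction, PRDM1 +43.1 kb and ZBTB20 -140 kb in summit pile-up and XBP1 -11.4 kb and KLF2 +5.83 kb in fold (both measures are explained with their results), followed by the strongest region of each exclusive class and by the strongest distal regions of PRDM1, XBP1 and POU2AF1. A region is named by its gene and the distance of its summit from the nearest TSS of that gene, negative upstream.
PRDM1 +43.1 kb, chr6:106141979-106142178: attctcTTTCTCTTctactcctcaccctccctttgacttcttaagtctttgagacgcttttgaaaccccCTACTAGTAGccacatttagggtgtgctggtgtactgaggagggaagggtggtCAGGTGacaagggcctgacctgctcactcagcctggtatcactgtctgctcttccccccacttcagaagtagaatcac
XBP1 -11.4 kb, chr22:28811859-28812058: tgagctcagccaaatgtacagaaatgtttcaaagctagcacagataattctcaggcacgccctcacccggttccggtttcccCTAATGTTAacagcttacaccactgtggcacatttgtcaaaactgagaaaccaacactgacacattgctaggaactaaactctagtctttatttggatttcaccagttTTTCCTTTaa
ZBTB20 -140 kb, chr3:114899623-114899822: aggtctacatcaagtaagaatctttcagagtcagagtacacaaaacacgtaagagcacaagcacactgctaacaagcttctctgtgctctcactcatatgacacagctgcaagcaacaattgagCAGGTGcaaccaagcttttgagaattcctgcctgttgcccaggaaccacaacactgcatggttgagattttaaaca
KLF2 +5.83 kb, chr19:16330570-16330769: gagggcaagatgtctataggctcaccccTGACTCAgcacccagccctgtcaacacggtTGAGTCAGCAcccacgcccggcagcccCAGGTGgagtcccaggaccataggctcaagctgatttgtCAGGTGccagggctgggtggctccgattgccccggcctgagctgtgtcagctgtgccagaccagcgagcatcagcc
MEF2C -2.67 kb, DMSO-only, chr5:88734394-88734593: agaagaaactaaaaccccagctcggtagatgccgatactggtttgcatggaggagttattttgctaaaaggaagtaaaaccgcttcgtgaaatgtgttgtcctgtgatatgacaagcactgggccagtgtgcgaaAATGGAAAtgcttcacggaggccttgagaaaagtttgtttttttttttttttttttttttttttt
ZBTB20 +116 kb, CB-6644-only, chr3:114954791-114954990: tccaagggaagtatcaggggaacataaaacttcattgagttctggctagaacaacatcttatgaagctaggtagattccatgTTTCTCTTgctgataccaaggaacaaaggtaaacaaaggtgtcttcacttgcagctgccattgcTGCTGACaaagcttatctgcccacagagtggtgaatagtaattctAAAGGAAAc
PRDM1 +7.53 kb, chr6:106106368-106106567: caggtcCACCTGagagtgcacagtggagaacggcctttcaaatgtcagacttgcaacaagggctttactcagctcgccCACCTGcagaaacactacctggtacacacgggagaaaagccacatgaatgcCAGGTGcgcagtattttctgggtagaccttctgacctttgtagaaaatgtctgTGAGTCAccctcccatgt
XBP1 -22.5 kb, chr22:28822982-28823181: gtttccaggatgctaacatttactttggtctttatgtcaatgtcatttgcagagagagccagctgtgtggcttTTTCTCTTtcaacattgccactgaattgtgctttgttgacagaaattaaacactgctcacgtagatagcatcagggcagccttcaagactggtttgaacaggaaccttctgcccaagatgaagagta
POU2AF1 +10.6 kb, chr11:111439250-111439449: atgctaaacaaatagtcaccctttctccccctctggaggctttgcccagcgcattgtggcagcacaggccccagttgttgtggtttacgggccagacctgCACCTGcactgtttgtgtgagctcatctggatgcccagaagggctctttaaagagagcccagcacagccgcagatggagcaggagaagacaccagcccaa
In PRDM1 +43.1 kb, the capitals mark an IRF match (AANNGAAA, here on the minus strand), overlapping MEF2 matches (CTANNNNTA, 1 on each strand) and an E-box (CAGGTG). N stands for any base, so patterns with N are loose. XBP1 -11.4 kb held an IRF and a MEF2 match. KLF2 +5.83 kb held 2 AP-1 matches (TGANTCA), of which 1 overlapped a MAF match (TGCTGAC), and 2 E-boxes. The run of PRDM1 +7.53 kb starts in a coding exon of PRDM1 and held 3 E-boxes and an AP-1 match. ZBTB20 +116 kb held 2 IRF matches and a MAF match. A match is a description of the letters and not evidence of binding.

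Most regions of the windows were called in both groups. Of the 153 regions, 77 were called in all 6 libraries, 7 in all 3 DMSO and in 0 CB-6644 libraries (DMSO-only), 2 in all 3 CB-6644 and in 0 DMSO libraries (CB-6644-only), 16 in 1 library and 51 in some other set of 2 to 5 libraries. The DMSO-only share was 4.58% of the window regions, against 4.5% of all merged regions, and the CB-6644-only share was 1.31% against 0.586%, with only 2 regions behind it. Regions called in more DMSO than CB-6644 libraries numbered 48 (31.4%, against 32.5% of all merged regions) and the opposite 16 (10.5%, against 12.8%), in lists that were longer in DMSO than in the CB-6644 libraries of the same fragment-length set. At least 1 DMSO-only region lay in 5 of the 8 windows (PRDM1, POU2AF1, MEF2C, ZBTB20 and KLF2), against 19.8% of the windows of all protein-coding genes, and at least 1 CB-6644-only region lay in 2 (POU2F2 and ZBTB20), against 4.29%. The windows of the members spanned 104 to 933 kb, and window length was not matched. The members were also chosen with earlier results of these data known, and these shares were not tested. Of the 153 regions, 129 lay nearest to a TSS of their own member among all protein-coding genes. XBP1, at 11.3 regions per 100 kb, and ZBTB20, at 3.75, were the most and the least densely covered windows.

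**Figure D1:**
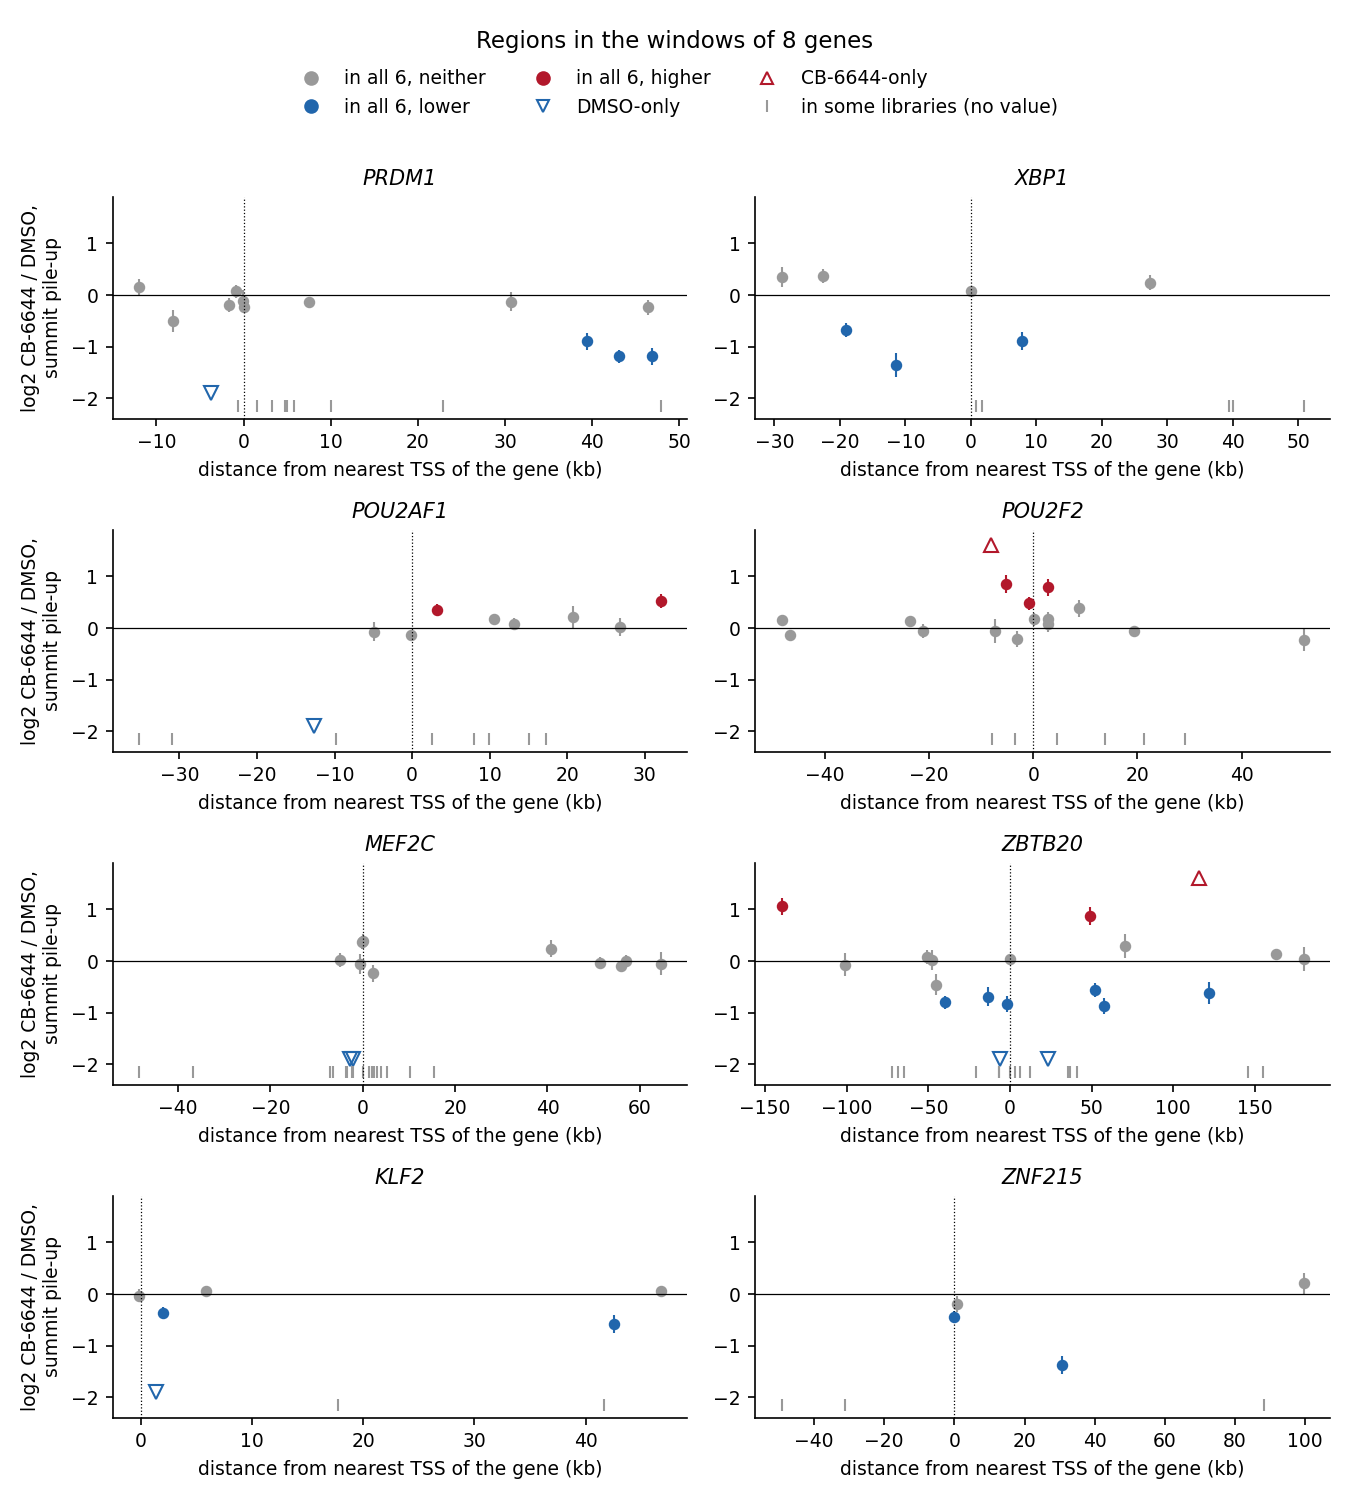
Each panel plots the regions of 1 window by the distance of the summit from the nearest TSS of the gene in kb (x axis, negative upstream) and by the log2 difference of the quantile-normalised summit pile-up, CB-6644 minus DMSO (y axis, bars are 1 SE of the limma fit). Filled points are the 77 regions called in all 6 libraries, open triangles the group-only regions (7 of DMSO, 2 of CB-6644) and ticks the regions called in some libraries, none of which have a y value. The 3 lower PRDM1 regions lie between 39.4 and 46.9 kb downstream, while the 3 PRDM1 promoter regions lie at -0.24, -0.11 and 0.07.

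The number of peaks in the windows did not separate the groups. Together the 8 windows held 111, 128 and 107 peaks in the CB-6644 libraries and 146, 129 and 119 in the DMSO libraries. Per 10000 peaks of the list this was 18.3 ± 0.429 (SD, n = 3) with CB-6644 and 18.3 ± 0.191 (SD, n = 3) with DMSO, and the means differed by 0.00763 (two-sided, exact permutation p = 1). A 3 against 3 design cannot give a p under 0.1. In the windows, POU2F2 held 3.2, 3.48 and 3.24 peaks per 10000 with CB-6644 and 2.66, 2.67 and 2.59 with DMSO, so all treated libraries lay above all controls (exact permutation test, p = 0.1), as they did in 15.8% of gene windows. ZNF215 held 0.842, 0.836 and 0.683 against 0.886, 0.985 and 1.07, with the treated libraries below (exact permutation test, p = 0.1), as in 5.99% of gene windows. The groups overlapped at the other 6 genes, with exact permutation p-values between 0.2 and 0.7. Adjusted over the 8 genes by Benjamini-Hochberg, these exact permutation p-values were 0.4 to 0.7.

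**Figure D2:**
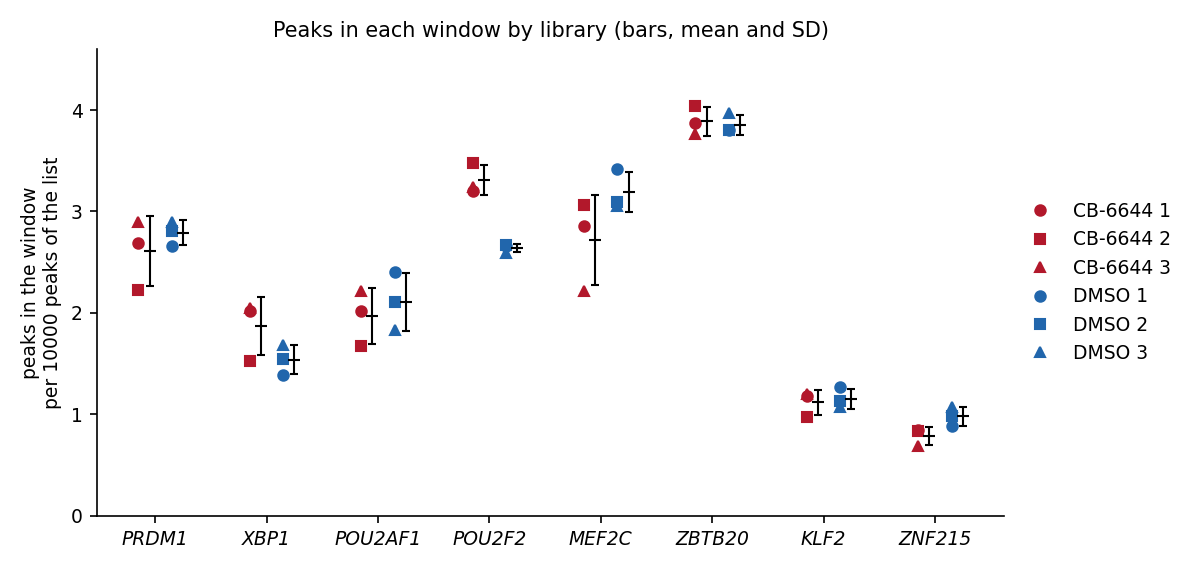
Points are the peaks in each window per 10000 peaks of the list (y axis) for each library, CB-6644 in red and DMSO in blue, with the mean and SD of 3 libraries beside them, for the 8 genes on the x axis. The groups separate at POU2F2, with CB-6644 above, and at ZNF215, with CB-6644 below.

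Heights of peaks were compared at the 77 window regions called in all 6 libraries, out of 42089 such regions. The deposited height is a fold of the tags at the summit over the local background, the tags expected from the surrounding kilobases. It was read with 1 tag added to both, which lowers the fold most where the background is low. The whole-tag pile-up at each summit and the local background were recovered from the deposited fold and p-value, and the pile-up was then tested in the same way, a measure chosen after the fold results had been seen. Both were log2 transformed and quantile normalised, and limma was fitted with the fragment-length set as covariate and Benjamini-Hochberg adjustment over all 42089 regions. In fold, 5 window regions were lower with CB-6644 (6.49%, against 6.09% of all regions) and 7 were higher (9.09%, against 4.22%), and 65 passed in neither direction. The split depended on the scaling, with 1 lower and 10 higher after median centring and 13 lower and 9 higher in -log10 p. Without the fragment-length term all 12 fold calls were lost, with 0 lower and 0 higher, and without CB-6644 replicate 1 there were 2 lower and 1 higher. In summit pile-up, 16 were lower (20.8%, against 12.7%) and 7 higher (9.09%, against 11.6%), and 54 passed in neither direction. The genes were chosen with earlier results of these data known, and the shares were not tested against those of all regions. The median log2 difference in pile-up was -0.04 over the 77 regions and 0.01 over all regions, and in fold it was 0.08 and 0.02. The 2 measures shared 5 lower and 3 higher regions and had 0 opposite calls. Without the fragment-length term 10 of the 23 pile-up calls were lost, leaving 9 lower and 4 higher.

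The local background moved too. Over all regions it had a median log2 difference of -0.81 in unscaled tags, and relative to that median it lay lower, by -1.54 to -0.17, at all 16 regions that fell in pile-up and higher, by 0.11 to 0.8, at all 7 that rose. The share over all regions that fell or rose is not given here. Window regions not called in pile-up lay off the median too, such as PRDM1 +46.4 kb at -1.08 and POU2F2 +8.72 kb at 0.39. The background around a summit includes tags of the peak itself and of neighbouring peaks. A fold can thus rise where pile-up does not, as it did at PRDM1 +46.4 kb.

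**Figure D3:**
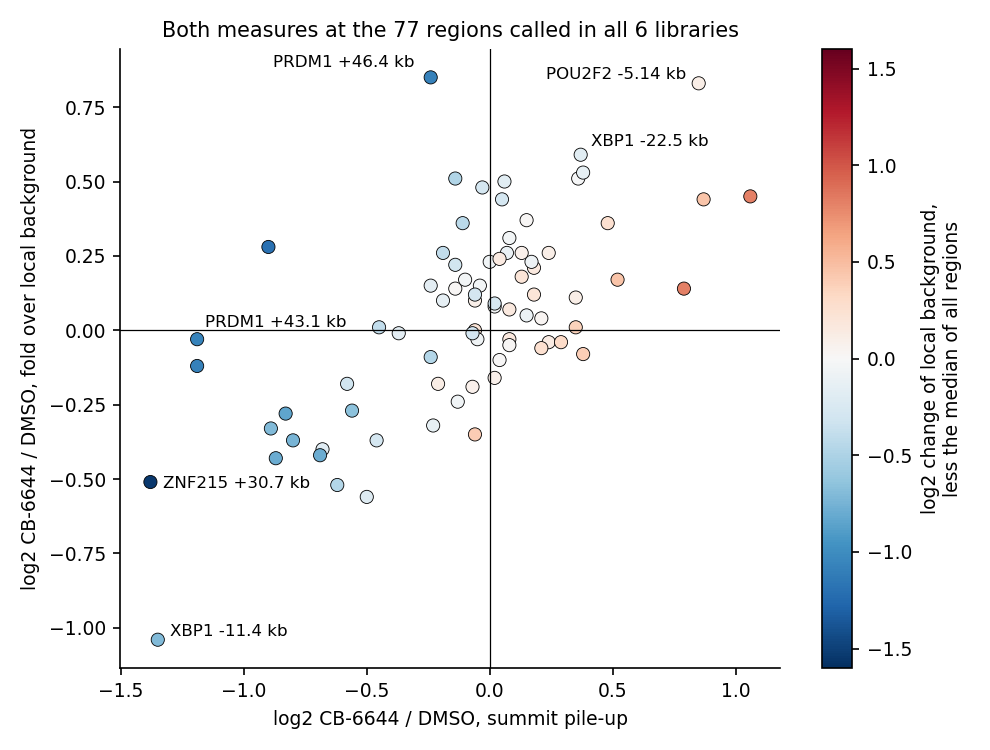
Points are the 77 regions called in all 6 libraries, by the log2 difference CB-6644 minus DMSO in summit pile-up (x axis) and in fold over the local background (y axis), coloured by the log2 change of the local background less the median of all regions. XBP1 -11.4 kb is lowest on the y axis at -1.04, and PRDM1 +46.4 kb lies at 0.85 in fold and -0.24 in pile-up, with its background at -1.08 from the median.

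Few promoter regions passed the test, in the windows as over all protein-coding genes, and the shares were not tested against each other. In fold, 0 of the 14 promoter regions called in all libraries passed, against 1.03% lower and 2.26% higher among 13341 such regions at promoters of protein-coding genes. The smallest adjusted p from limma, 0.052, belonged to XBP1. An unadjusted p under 0.05 stood at 6 of the 14, and at 11604 of all 42089 regions called in all libraries. In pile-up 1 was lower (ZNF215) and 1 higher (POU2F2), against 5.55% and 6.18%. At the ZNF215 promoter (chr11:6926097-6927121) the pile-up was 102, 56 and 128 tags with CB-6644 and 172, 225 and 187 with DMSO. Scaled, the means were 114 ± 1.85 and 155 ± 7.96 (SD, n = 3), without overlap, and the log2 difference was -0.45 ± 0.12 (SE, limma adjusted p = 0.0076), a call lost without the fragment-length term (limma adjusted p = 0.052). At the promoter region of POU2F2 at -0.852 kb (chr19:42133010-42133675) the scaled means were 116 ± 4.65 and 83.4 ± 9.12 (SD, n = 3), without overlap (log2 0.48 ± 0.13, limma adjusted p = 0.012). That call was lost when replicate 3 of CB-6644 or of DMSO was left out (limma adjusted p = 0.068 and 0.085) and without the term (limma adjusted p = 0.074). The fold did not pass at either promoter (log2 0.01 at ZNF215 and 0.36 at POU2F2).

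**Figure D4:**
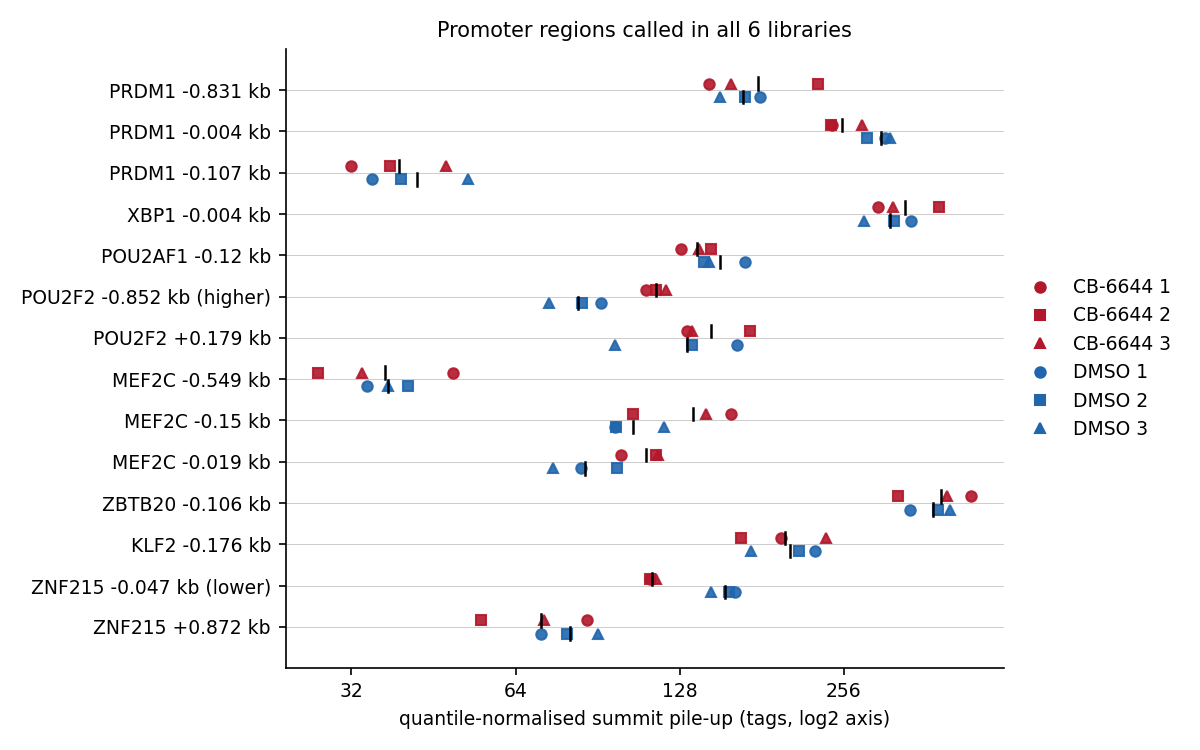
Points are the quantile-normalised summit pile-up in tags (x axis, log2 scale) of each library at the 14 promoter regions of the 8 genes called in all 6 libraries, CB-6644 in red and DMSO in blue, with bars at the group means. The groups are apart at POU2F2 -0.852 kb and ZNF215 -0.047 kb, which passed the test. They are also apart at PRDM1 -0.004 kb (CB-6644 below) and MEF2C -0.019 kb (CB-6644 above), which did not pass. The share of all promoter regions whose groups are apart is not given here, so these separations are a description. The strongest promoters, of XBP1 and ZBTB20, overlap.

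At PRDM1 a distal cluster fell and no promoter region passed the test. Of the 12 shared regions of PRDM1 3 were lower in pile-up and 0 higher, against 12.7% and 11.6% of all regions. Its main promoter, 4 bp from a TSS (chr6:106085915-106086524), had a pile-up of 218, 128 and 321 tags with CB-6644 and 326, 391 and 379 with DMSO. Scaled, the means were 254 ± 18.6 and 300.0 ± 14.7 (SD, n = 3), with the treated libraries below, but the log2 difference of -0.24 ± 0.09 did not pass (limma adjusted p = 0.06). The farther 5′ promoter at -0.831 kb (chr6:105992022-105992956) gave 0.07 ± 0.12 (limma adjusted p = 0.72). Downstream of the gene, in introns of ATG5, 3 of 4 regions between +39.4 and +46.9 kb fell. At +43.1 kb (chr6:106141435-106142372) the pile-up was 73, 47 and 80 tags with CB-6644 and 181, 276 and 250 with DMSO. All treated libraries lay below all controls, and the scaled pile-up was 2.28-fold lower (log2 -1.19 ± 0.13, limma adjusted p = 2.8e-06), the smallest adjusted p of any window region. At +46.9 kb (chr6:106145652-106145952), 42, 15 and 55 tags stood against 102, 123 and 139 (log2 -1.19 ± 0.17, limma adjusted p = 3.3e-05). At +39.4 kb (chr6:106138188-106138466), 42, 22 and 38 tags stood against 80, 122 and 95 (log2 -0.9 ± 0.17, limma adjusted p = 0.00061). These 3 calls held in all 10 alternatives. The fourth, at +46.4 kb (chr6:106145190-106145453), had 65, 29 and 67 tags against 76, 106 and 109 and did not pass in pile-up (log2 -0.24 ± 0.15, limma adjusted p = 0.27), while its fold was higher (0.85 ± 0.19, limma adjusted p = 0.02). The fold call was lost without CB-6644 replicate 1, DMSO replicate 2 or DMSO replicate 3 (limma adjusted p = 0.056, 0.059 and 0.052). The local background was 9.12, 2.22 and 10.4 tags with CB-6644 and 13.7, 27.3 and 28 with DMSO at +43.1 kb, and 5.38, 1.39 and 5.91 against 8.73, 17.7 and 18.5 at +39.4 kb. None of the 3 others passed in fold, with log2 differences of 0.28, -0.03 and -0.12. The strongest distal region of PRDM1, at +7.53 kb, did not pass in either measure (pile-up log2 -0.14 ± 0.11, limma adjusted p = 0.4). A DMSO-only region in introns of PRDM1 and ATG5 at -3.74 kb (chr6:106094633-106094930) was weak in the controls too, at percentiles of 0.199, 10.9 and 3.24.

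At XBP1 3 of 7 shared regions, all distal, fell in pile-up and 0 rose, against 12.7% and 11.6% of all regions. The promoter, among the strongest of the windows, did not pass. The promoter (chr22:28800118-28800945) lay at percentiles of 96.5, 99.3 and 97.4 with CB-6644 and 98.6, 97.6 and 95.1 with DMSO, and the pile-up differed by 0.08 ± 0.08 on the log2 scale (limma adjusted p = 0.52). At -11.4 kb (chr22:28811757-28812523) the pile-up was 16, 9 and 33 tags with CB-6644 and 47, 94 and 67 with DMSO. The groups did not overlap once scaled, and the region was 2.55-fold lower (log2 -1.35 ± 0.23, limma adjusted p = 0.00025). It was also the region with the smallest adjusted p in fold, with scaled folds of 8.46, 9.06 and 12.6 against 18.6, 22.9 and 19.8 (log2 -1.04 ± 0.17, limma adjusted p = 0.0048), and it was the 1 fold call of 12 that held in every alternative with the fragment-length term. Without that term its fold did not pass (limma adjusted p = 0.053), while its pile-up did (limma adjusted p = 0.011). The local background there was 1.03, 0.236 and 1.72 tags with CB-6644 and 1.14, 3.14 and 2.74 with DMSO. At such low values the tag added to both weighs heavily on the fold. At -19.1 kb (chr22:28819304-28819870), 76, 29 and 91 tags stood against 120, 175 and 162 (log2 -0.68 ± 0.13, limma adjusted p = 0.00095). Downstream at +7.8 kb (chr22:28791856-28793310), 54, 11 and 61 tags stood against 63, 121 and 137 (log2 -0.89 ± 0.17, limma adjusted p = 0.00062), a call lost without the fragment-length term (limma adjusted p = 0.11). The strongest distal region, at -22.5 kb, moved the other way. Its fold was higher (0.59 ± 0.16, limma adjusted p = 0.039), a call held in 3 of 11 alternatives with the term and lost whichever library was left out (limma adjusted p from 0.073 to 0.12), and its pile-up did not pass (0.37 ± 0.14, limma adjusted p = 0.055). The window held 0 group-only regions.

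At POU2AF1 and POU2F2, the octamer pair, 2 of 8 shared regions and 3 of 15 were higher in pile-up and 0 were lower, against 11.6% and 12.7% of all regions. In POU2AF1, an intronic region at +32.1 kb (chr11:111417053-111418093) had 98, 67 and 114 tags with CB-6644 and 90, 113 and 103 with DMSO. Raw tags overlapped, and after scaling the treated libraries lay above the controls at means of 115 ± 15.6 and 79.9 ± 4.73 (SD, n = 3), a log2 difference of 0.52 ± 0.13 (limma adjusted p = 0.0065, and 0.067 without the fragment-length term). A second intronic region at +3.27 kb (chr11:111446414-111446917) passed narrowly (0.35 ± 0.12, limma adjusted p = 0.042), with overlapping groups, and was lost without replicate 1 or 2 of CB-6644 or replicate 1 or 3 of DMSO (limma adjusted p from 0.13 to 0.16) and without the term (limma adjusted p = 0.24). The distances of +32.1, +3.27 and +10.6 kb run from the farther 5′ of the 2 TSSs of POU2AF1, where no promoter region was called. The promoter region at the other TSS (chr11:111378605-111379763), which these regions lie upstream of, gave -0.14 ± 0.11 (limma adjusted p = 0.41). The strongest distal region of POU2AF1, at +10.6 kb, gave 0.18 ± 0.1 (limma adjusted p = 0.21). A DMSO-only region in a POU2AF1 intron at -12.6 kb (chr11:111391826-111392073) had percentiles of 20.7, 36.7 and 38.8 in the controls.

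POU2F2 had the largest rise in fold among the 3 regions higher in both measures. At -5.14 kb, in a UTR of the neighbouring gene DEDD2 (chr19:42201558-42202033), the pile-up was 60, 24 and 66 tags with CB-6644 and 38, 43 and 41 with DMSO. CB-6644 replicate 2, of the short set, was low in raw tags, and after scaling the treated libraries lay above the controls (log2 0.85 ± 0.18, limma adjusted p = 0.0017). The fold differed by 0.83 ± 0.17 (limma adjusted p = 0.013), and did not pass without CB-6644 replicate 1, DMSO replicate 2 or DMSO replicate 3 (limma adjusted p = 0.063, 0.064 and 0.056). At +2.86 kb, in an intron (chr19:42114168-42114819), 75, 42 and 95 tags stood against 60, 78 and 52, and the scaled pile-up was 1.72-fold higher (log2 0.79 ± 0.16, limma adjusted p = 0.0013), but the fold was not called (0.14 ± 0.11, limma adjusted p = 0.44). The second promoter region, at +0.179 kb, gave 0.17 ± 0.13 in pile-up (limma adjusted p = 0.36). The strongest distal region of POU2F2, at +2.89 kb in an intron, gave 0.08 ± 0.15 (limma adjusted p = 0.75). The CB-6644-only region at -8.18 kb, in an intron (chr19:42185349-42185571), was called at percentiles of 8.53, 42.2 and 15 with pile-ups of 15, 15 and 20 tags.

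MEF2C had 0 of its 10 shared regions pass in either measure under limma. Of the 10 at MEF2C, 2 had an unadjusted p under 0.05 in fold and 2 in pile-up, against 11604 and 14925 of all 42089 regions. Only these 10 of its 30 regions were called in all 6 libraries, with 5 called in 1 library and 13 called in more DMSO than CB-6644 libraries against 3 in more CB-6644 libraries. Promoter regions at -0.15 kb (chr5:88827056-88827535) and -0.019 kb (chr5:88883067-88884358) had pile-up differences of 0.36 ± 0.13 and 0.38 ± 0.14 (limma adjusted p = 0.056 and 0.058). The strongest distal region, at +51.3 kb, had 121, 60 and 155 tags against 142, 187 and 179 and a scaled difference of -0.04 ± 0.12 (limma adjusted p = 0.86). Its 2 DMSO-only regions were intronic. The one at -2.67 kb (chr5:88734371-88734544) had 37, 54 and 57 tags at percentiles of 42.7, 36.7 and 39.2 in the controls and was the best ranked DMSO-only region of the windows by its lowest percentile. The other, at -2.12 kb (chr5:88829184-88829416), lay at percentiles of 23.2, 6.94 and 8.27.

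ZBTB20, the longest gene of the set, had calls in both directions in pile-up. Of its 16 shared regions 6 were lower and 2 higher, against 12.7% and 11.6% of all regions. Its promoter (chr3:115146653-115148225) had 398, 172 and 463 tags with CB-6644 and 360, 515 and 490 with DMSO, a scaled difference of 0.04 ± 0.08 (limma adjusted p = 0.77). At -40 kb, the strongest distal region of the window (chr3:115186930-115187546), 84, 53 and 90 tags stood against 166, 220 and 222. All treated libraries were below all controls, by 1.74-fold once scaled (log2 -0.8 ± 0.13, limma adjusted p = 0.00014), and the fold fell as well (-0.37 ± 0.07, limma adjusted p = 0.0082). At -2.05 kb, in an intron (chr3:114456681-114457083), 64, 23 and 94 tags stood against 114, 178 and 162 (log2 -0.83 ± 0.15, limma adjusted p = 0.00032). The intronic regions at +57.7 and +52.1 kb and the upstream region at -13.2 kb fell in both measures, with pile-up differences of -0.87, -0.56 and -0.69. Without the fragment-length term the pile-up calls at +52.1 and -13.2 kb were lost (limma adjusted p = 0.12 and 0.23). At each of these 3 the fold call was lost without 4 or 5 of the 6 libraries in turn (limma adjusted p up to 0.18), as was the pile-up call at -13.2 kb without CB-6644 replicate 1 or DMSO replicate 2 (limma adjusted p = 0.094 and 0.12). The region at +122 kb, in a UTR of ZBTB20, passed at a difference of -0.62 with overlapping groups, and was lost without any 1 library other than DMSO replicate 2 (limma adjusted p from 0.052 to 0.26) and without the term (limma adjusted p = 0.3). The higher pair was intronic. At -140 kb (chr3:114899618-114899895), 89, 36 and 78 tags stood against 42, 60 and 46, and the scaled pile-up was 2.08-fold higher (log2 1.06 ± 0.17, limma adjusted p = 0.00015), with the fold higher too (0.45 ± 0.12, limma adjusted p = 0.031). At +49.3 kb (chr3:114405314-114405504), 58, 23 and 56 tags stood against 30, 46 and 37 (log2 0.87 ± 0.18, limma adjusted p = 0.0015). In fold, both higher calls were lost without CB-6644 replicate 1 or 3 or DMSO replicate 2 or 3 (limma adjusted p from 0.057 to 0.13). The DMSO-only regions at -5.86 kb (chr3:114460586-114460765) and +23.4 kb (chr3:114600617-114600935) and the CB-6644-only region at +116 kb (chr3:114954543-114955096) were intronic, and the last had 19, 8 and 24 tags at percentiles of 21.3, 16.4 and 25.1.

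KLF2 and ZNF215 had the shortest lists of regions. Of their 5 and 4 shared regions 2 and 2 were lower in pile-up and 0 higher, against 12.7% and 11.6% of all regions. At KLF2 the promoter (chr19:16324429-16325442) differed by -0.03 ± 0.13 in pile-up (limma adjusted p = 0.9). The DMSO-only region at +1.33 kb, in the KLF2 intron (chr19:16325959-16326285), had 75, 112 and 116 tags in the controls, the tallest pile-up among the DMSO-only regions, but ranked at percentiles of only 20.1, 18.6 and 21.4. Next to it, at +1.98 kb (chr19:16326518-16327030), 91, 50 and 110 tags stood against 149, 183 and 160 (log2 -0.37 ± 0.12, limma adjusted p = 0.032), a call lost whichever library was left out (limma adjusted p from 0.062 to 0.13) and without the fragment-length term (limma adjusted p = 0.12). The strongest distal region of KLF2, at +5.83 kb, had 302, 160 and 360 tags against 330, 390 and 384, and these differed by 0.06 ± 0.09 once scaled (limma adjusted p = 0.66). Its fold was higher (0.5 ± 0.11, limma adjusted p = 0.016, and 0.059 without CB-6644 replicate 1), while its local background was 14.7, 4.75 and 18.1 tags with CB-6644 and 15, 24.8 and 26.6 with DMSO. The same held for +46.8 kb in an intron of EPS15L1, with 0.44 ± 0.1 in fold (limma adjusted p = 0.016) and 0.05 ± 0.1 in pile-up (limma adjusted p = 0.77). That fold did not pass without CB-6644 replicate 2 or 3 or DMSO replicate 1 (limma adjusted p = 0.067, 0.057 and 0.061). A region at +42.6 kb in that gene fell (-0.58 ± 0.17, limma adjusted p = 0.016) but did not pass without replicate 1 or 2 of CB-6644 or DMSO replicate 3 (limma adjusted p = 0.084, 0.054 and 0.077), nor without the term (limma adjusted p = 0.095). In ZNF215 an intronic region at +30.7 kb (chr11:6962537-6963172) had 41, 11 and 71 tags with CB-6644 and 91, 173 and 155 with DMSO. It was 2.6-fold lower in scaled pile-up without overlap (log2 -1.38 ± 0.18, limma adjusted p = 1.4e-05), and its fold did not pass (-0.51 ± 0.17, limma adjusted p = 0.072). The strongest distal region of the ZNF215 window, at +99.6 kb in an intron of NLRP14, gave 0.21 ± 0.2 in pile-up (limma adjusted p = 0.51).

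**Figure D5:**
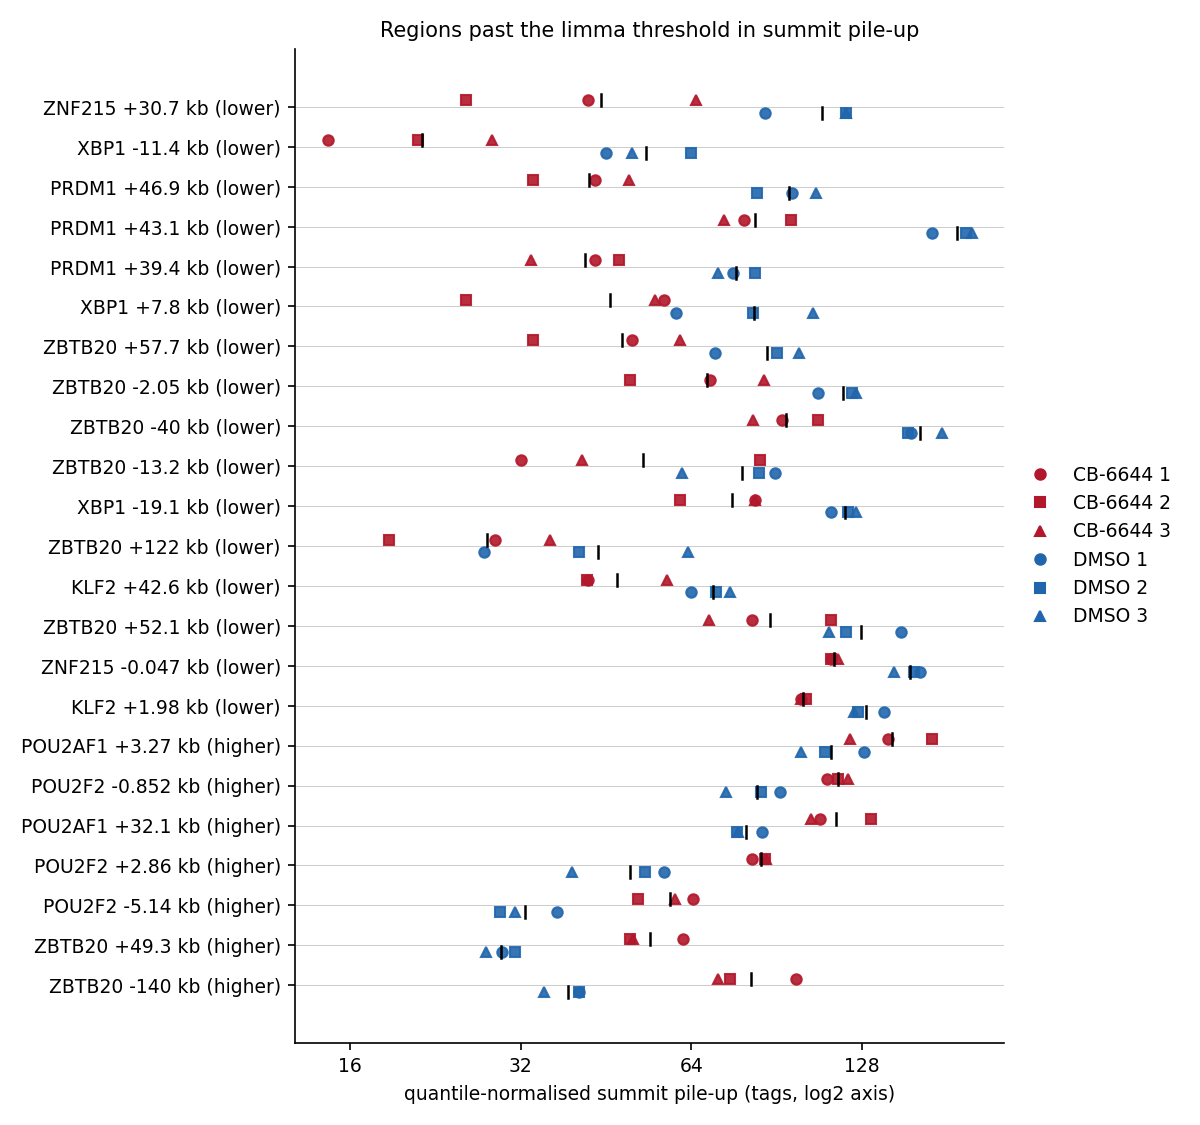
Points are the quantile-normalised summit pile-up in tags (x axis, log2 scale) of each library at the 23 regions past the limma threshold in pile-up, CB-6644 in red and DMSO in blue, with bars at the group means, ordered from the most reduced to the most increased. The ZNF215, XBP1 and PRDM1 regions at the top are 1.86-fold to 2.6-fold lower, and ZBTB20 -140 kb at the bottom is 2.08-fold higher.

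Motif content of the 153 regions, within 100 bp of the strongest summit and on both strands, was close to that of all 89196 regions for most of the 12 motifs. IRF matches stood in 36.6% of window regions and 32.8% of all, and the ETS-IRF composite (GGAANNGAA, which can overlap an IRF match) in 7.84% and 7.78%. The octamer (ATGCAAAT), bound by POU2F2 with POU2AF1, stood in 6 window regions (3.92% against 2.34%), 3 at MEF2C, 2 at ZBTB20 and 1 at POU2AF1. The element of XBP1 (UPRE, TGACGTGG) stood in 2 window regions (1.31% against 0.362%), the promoter region of CCDC117 in the XBP1 window and an intronic region of POU2AF1. The PRDM1 motif (AAGTGAAAG) stood in 1 region, of ZBTB20 (0.654% against 1.94%), and the KLF motif (CCACACCC) in 1, of MEF2C (0.654% against 2.17%). MEF2 matches stood in 17% of window regions and 17.8% of all, E-boxes in 27.5% and 27.6%, MAF matches in 7.84% and 5.3% and AP-1 matches in 11.1% and 10.5%. NF-kB (GGGANNTTC) and ATF4-CEBP (TGATGNAA) matches stood in 2.61% of window regions each, against 2.83% and 3.98%. Among the 16 regions that fell in pile-up 7 held an E-box (43.8%, against 32% of all regions that fell). A MEF2 match stood in 6 and an IRF match in 6 (37.5% each, against 20.4% and 43.3%). Among the 7 that rose 4 held an E-box (57.1%, against 41.7% of all regions that rose), 1 an IRF match (14.3% against 23.6%) and 0 a MEF2 match (against 13.2%). These shares rest on few regions and were not tested.

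Other genes of these programs were read at their strongest promoter region called in all libraries, in pile-up. Of 31 genes of the plasma cell program 27 had such a region, and 4 were lower and 1 higher, where 5.55% and 6.18% of all shared regions at promoters were. IRF4, a regulator upstream of PRDM1, fell by 0.7 ± 0.13 on the log2 scale (limma adjusted p = 0.00076) and CD38, a surface ectoenzyme of plasma cells, fell by 0.6 ± 0.12 (limma adjusted p = 0.00076). The surface receptor GPRC5D fell by 1.28 ± 0.22 (limma adjusted p = 0.00021) and DERL3, of the endoplasmic reticulum degradation machinery, fell by 0.22 ± 0.07 (limma adjusted p = 0.039). SUB1, a transcription coactivator, rose by 0.32 ± 0.11 (limma adjusted p = 0.044). Of 22 genes of the B-cell program 16 had such a region, 0 were lower and 1 was higher (FOXO1, 0.65 ± 0.17, limma adjusted p = 0.0082). Of 20 relatives of the members 16 had one, 1 was lower (ZBTB10) and 3 were higher (KLF3, KLF6 and ZBTB38). In the windows of the plasma cell program 43 of 238 shared regions were lower (18.1%) and 33 higher (13.9%), and in those of the B-cell program 13 of 139 were lower (9.35%) and 18 higher (12.9%). Over all shared regions 12.7% were lower and 11.6% higher, and these shares were not tested against each other.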

How the data were processed

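Omni-ATAC libraries were prepared from MM.1S cells, 3 treated with CB-6644 and 3 with DMSO. The submitters' processing notes name Bowtie2 2.4.2, MACS3 3.0 and hg38, and the authors called peaks for each library without pooling. The deposited fold is the ratio of the summit pile-up to the local background after the same constant is added to both, with no scaling between libraries. The deposited -log10 p and -log10 q values are those of the peak caller. The lists hold no read counts, so the authors' count test was not run.

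The members, lists and motifs were chosen with earlier results of these data known. Genes and TSSs were those of protein-coding transcripts in GENCODE release 44. Peaks overlapping by 1 bp or more were merged, and the strongest peak of a library by -log10 p gave its value. A percentile is the rank of -log10 p in its list. Summit pile-up was recovered as the whole number of tags that gave back the deposited p-value within 0.1%, which 100% of peaks in each library did. limma 3.58.1 (R 4.3.3, trend on) was fitted to log2 values, with the fragment-length set (shortest peak under 100 bp or not) as covariate and an adjusted p under 0.05 as threshold. The planned measure was the fold, and pile-up was added after seeing the data. The fit was checked on simulated data. Group-only regions, called regions and the strongest distal region of each window were named by rule. The 2 printed sequences chosen by pile-up were added after their values were seen. Alternatives covered the threshold, list length, overlap, flank (25 kb), scaling, covariate, replicate block and leaving out each library. Neither the fold nor the pile-up corrects for depth or fragment length, and a missing peak means only that the caller's threshold was not reached. The values of 1 B-cell marker are not reported here.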

Additional observations from a re-analysis of the deposited data

How the results depend on the processing

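DMSO-only regions numbered 7, and 15 when 2 of 3 libraries sufficed, 16 in the 4 long-fragment libraries, and 2 both with equally long lists and with the 20000 top peaks. Leaving out a library gave 8 to 13, the highest without CB-6644 replicate 2. CB-6644-only regions numbered 2, and 4 with 2 of 3 libraries, 4 in the long-fragment libraries, 1 with equally long lists, 1 with 50% of the region covered and 2 to 3 without a library. In fold, lower regions numbered 5, and 16 in summit pile-up, 1 after median centring, 13 in -log10 p, 0 without the fragment-length term and 2 to 7 without a library. They numbered 2 without CB-6644 replicate 1, DMSO replicate 1 or DMSO replicate 2. Higher regions numbered 7, and 4 in the long-fragment libraries, 0 without the term and 1 to 5 without a library, with 1 without CB-6644 replicate 1 and 3 without CB-6644 replicate 3, DMSO replicate 2 or DMSO replicate 3. Without the term limma still called 176 lower and 135 higher of 42089 regions. An unadjusted p under 0.05 then stood at 13 of the 77 window regions and at 6081 of the 42089. In pile-up, lower regions numbered 16, and 9 without the term and 12 to 19 without a library, and higher regions 7, and 4 and 6 to 8. Of the 23 pile-up calls 17 held in all 8 alternatives that kept the term, and 9 in all 10. The fold of PRDM1 +46.4 kb turned to -0.24 in pile-up. Peaks per 10000 differed by 0.00763, by -0.114 with equally long lists, by -0.0712 with 25 kb flanks, by 0.334 in the long and -0.644 in the short set, and by -0.205 to 0.224 without a library, negative without CB-6644 replicate 1, DMSO replicate 2 or DMSO replicate 3. The cause of these shifts was not tested.

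The deviations of same-numbered libraries had r of -0.477, -0.332 and 0.326 over regions. The highest r, 0.572, joined CB-6644 replicate 2 and DMSO replicate 1, the libraries of the short set. The fragment-length split thus enters these values, and they cannot decide whether the numbers pair the libraries. The main fits did not pair them. With the replicate block, which takes the place of the fragment-length term, limma on the fold called 0 lower and 0 higher window regions. An unadjusted p under 0.05 stood at 9 of the 77 and at 4732 of all 42089 regions. In pile-up the block fit called 7 lower and 2 higher, and the difference in peaks per 10000 stayed 0.00763 (exact sign-flip test, p = 1, the smallest possible being 0.25).

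Limits remain. Peak lists give 1 value per summit and no read counts, 3 libraries a group come from 1 cell line, and 2 libraries reached shorter peaks. That these 2 had shorter fragments was inferred from their shortest peaks and not measured. Summit pile-up is not corrected for depth except by the normalisation, which assumes like distributions of height. Alternatives in pile-up were chosen after seeing the data.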
